A study of Mus musculus with 8 samples.

Results

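Interferon-stimulated genes are the genes that a cell transcribes after an interferon binds its receptor, and 49 of them were followed in mouse T cells cultured under a Th17 condition. The members were listed by gene symbol, and every probe set that carried the symbol of a single listed gene was read. By this rule 47 of the 49 genes were measured, on 77 probe sets, out of 18193 genes measured on the array. Isg15, the ubiquitin-like modifier, lies on a probe set shared with Gm9706 and was not used, and Ifi44 was not analysed here.

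The study asked how digoxin, a cardiac glycoside that inhibits the transcription factor RORγt, compares with loss of RORγt itself. Naive CD4 T cells of C57BL/6 mice were sorted by flow cytometry, activated with CD3 and CD28 antibodies, and held in the Th17 condition for 48 h. There were 4 groups with 2 Affymetrix mouse expression arrays each. They were wildtype cells with DMSO (the vehicle), wildtype cells with digoxin, RORγt-deficient cells with DMSO and RORγt-deficient cells with digoxin. The Th17 culture and the antibodies were common to all groups, so no group shows unstimulated cells, and no group received interferon. Not given in the sources used here are the digoxin dose, the RORγt allele and any pooling of mice. The arrays of a group are titled biological replicates, but no separate mice or cultures are named. A p-value here reflects only how much such arrays differ, which may in part be technical.

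Interferons reach T cells as type I (interferon alpha and beta) and type II (interferon gamma). Through JAK kinases, type I interferon acts mainly at the interferon-stimulated response element (ISRE) of its target genes, whereas interferon gamma acts mainly at the gamma-activated site (GAS), and many targets answer to both. The products sense foreign nucleic acid, degrade or sequester viral RNA, hold back translation, attack vacuoles with guanylate-binding GTPases and load antigen onto MHC class I molecules. Th17 cells, which make IL-17 under the control of RORγt, are restrained by both kinds of interferon.

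Promoter sequence was taken from RefSeq (GRCm38.p6) as windows from 250 bases before to 50 bases after each start site, and 36 of the 47 genes had one. The motifs searched were the ISRE (GAAA, any 2 bases, GAAA, on either strand) and the GAS (TTC, any 3 bases, GAA, which reads alike on both strands). An ISRE match was present for 16 of the 36 genes (44.4%), against 1079 of all 27025 genes with a window (3.99%). A GAS match was present for 11 of the 36 (30.6%), against 2582 of all 27025 (9.55%), and the motifs overlapped in 2 of the genes. The 250 bases before the start site are shown for the members whose RNA changed and that had an entry, together with Ifit1, a classical interferon target that was not called in any comparison. Matches are in capitals.

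Ifitm1, chr7:140967826-140968075, plus strand, with no match: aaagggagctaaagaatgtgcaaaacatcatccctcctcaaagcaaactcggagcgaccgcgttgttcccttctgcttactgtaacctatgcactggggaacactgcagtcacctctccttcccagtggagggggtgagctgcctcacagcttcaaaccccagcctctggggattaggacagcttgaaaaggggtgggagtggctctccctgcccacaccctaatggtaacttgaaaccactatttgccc

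Gbp2, chr3:142620413-142620662, plus strand, with 1 ISRE match that begins 59 bases before the start site: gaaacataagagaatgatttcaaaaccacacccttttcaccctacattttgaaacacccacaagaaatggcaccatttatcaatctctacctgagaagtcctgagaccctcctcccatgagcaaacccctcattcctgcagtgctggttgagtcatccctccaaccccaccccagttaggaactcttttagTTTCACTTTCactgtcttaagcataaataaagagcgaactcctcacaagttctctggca

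Isg20, chr7:78913174-78913423, plus strand, 1 of 3 windows of this gene, with 1 GAS match that begins 73 bases before the start site: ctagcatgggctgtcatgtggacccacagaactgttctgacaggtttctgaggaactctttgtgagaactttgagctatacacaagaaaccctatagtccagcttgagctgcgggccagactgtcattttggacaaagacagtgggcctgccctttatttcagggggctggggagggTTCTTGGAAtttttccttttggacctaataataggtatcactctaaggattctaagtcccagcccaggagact

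Ifit1, chr19:34640639-34640888, plus strand, with 2 ISRE matches that begin 104 and 85 bases before the start site: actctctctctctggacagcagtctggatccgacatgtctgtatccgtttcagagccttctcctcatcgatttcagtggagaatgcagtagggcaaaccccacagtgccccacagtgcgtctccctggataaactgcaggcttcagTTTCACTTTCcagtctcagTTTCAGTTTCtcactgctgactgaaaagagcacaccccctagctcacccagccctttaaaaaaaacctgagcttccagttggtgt

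The 3 changed genes thus differ from each other in these letters: Gbp2 holds an ISRE match, Isg20 holds a GAS match, and Ifitm1 holds neither within its window. Isg20 has 3 windows, and the only 1 with a match was chosen for print. Ifitm1 and Gbp2 have 1 window each, so Isg20 had more sequence in which to match. A match is a run of letters and not a measured binding site, and the absence of one in the window is no statement about the factor.

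All values are log2 differences from untreated wildtype cells (the mean of their 2 arrays), because the deposited values were centred on those arrays for each probe set. They therefore show changes and not levels, and the 2 wildtype DMSO arrays are mirror images around 0. The numerical step of the deposited values still gives a range for the lowest level of each gene before centring. On that scale 18 of the 47 genes lay at 8 or above (Bst2, Daxx, Ddx58, Dtx3l, Gbp2, Ifi35, Ifi47, Ifitm2, Igtp, Irf1, Irf9, Lgals3bp, Parp9, Psmb8, Psmb9, Samhd1, Tap1 and Trim30a), 21 lay from 4 to 8, and 8 lay from 2 to 4 (Dhx58, Ifit1, Ifitm3, Iigp1, Mx1, Oasl2, Rtp4 and Xaf1). Among all genes, 46.6% lay from 4 to 8 and 33.4% from 2 to 4. These ranges depend on each probe set's brightness and do not order genes by abundance.

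A gene was called when its adjusted p was under 0.05 (limma, two-sided, Benjamini-Hochberg over all 18193 genes), and errors are standard errors from that fit with n = 2 arrays per group. The SD of the difference between the 2 arrays of a group, over all genes, was 0.18 to 0.24. Il17a, the main cytokine of Th17 cells and a target of RORγt, checked genotype and drug. Wildtype cells read -0.017 and 0.017 with DMSO and -2.35 and -2.44 with digoxin, while RORγt-deficient cells read -2.01 and -2.21 with DMSO and -3.87 and -4.12 with digoxin, and no pair of groups overlapped. The RORγt gene itself was not analysed here. The T cell genes Cd3d, Cd3e, Cd3g, Cd4, Cd5 and Cd28 all lay at 8 or above in every array.

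Loss of RORγt in DMSO raised 4 of the 47 interferon-stimulated genes (8.51%) and lowered none, against 191 of all 18193 genes called in either direction (1.05%). The 4 were Gbp2, Ifitm1, Isg20 and Zbp1, with rises of 1.53- to 2.03-fold. These were bulk cultures, so a larger share of cells with a transcript cannot be told apart from more of it per cell. At an unadjusted p under 0.05, 10 members were higher (21.3%) against 4.25% of all genes, and 1 was lower (Ly6e) against 6.08% of all genes. The median difference over the 47 genes was 0.15, against 0.005 over all genes, and 33 of 47 lay above 0 (70.2%, against 51.5% of all genes). The members and gene lists were chosen with earlier results of these data known. These shares and those below are therefore no independent test of the set.

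**Figure D1:**
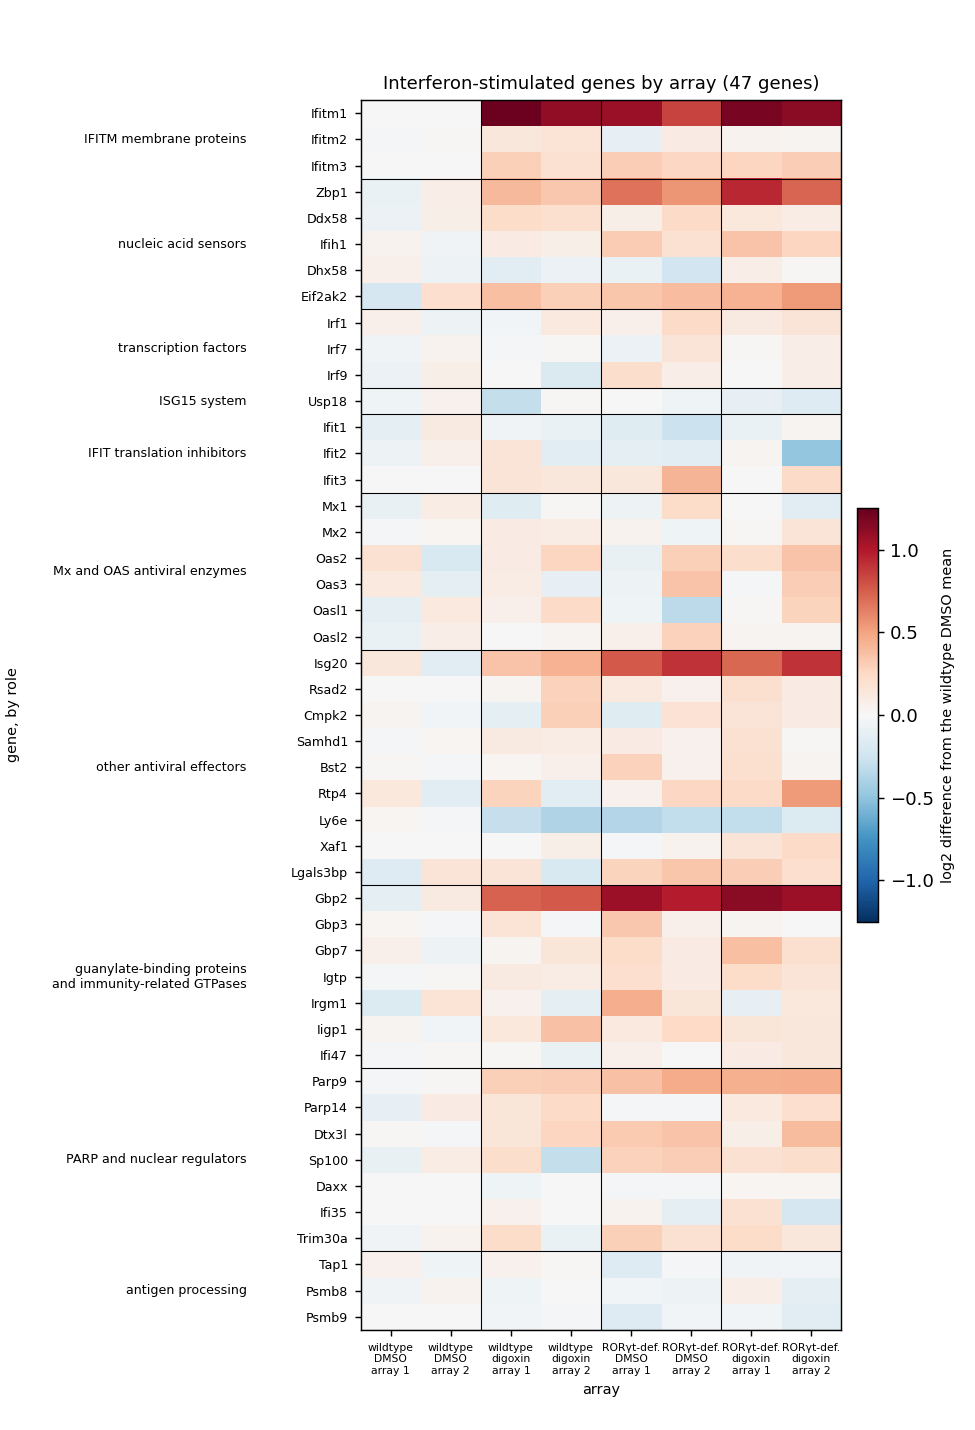
Log2 difference from the wildtype DMSO mean (colour; red higher, blue lower) for the 47 measured interferon-stimulated genes (rows, by role) in each of the 8 arrays (columns, 2 per group). Ifitm1, Gbp2, Isg20 and Zbp1 are the darkest rows in the RORγt-deficient arrays. In the wildtype digoxin arrays some other rows are as dark as Isg20 and Zbp1. Ly6e is below 0 in all 6 digoxin or RORγt-deficient arrays. The IFIT, Mx, OAS and antigen-processing rows are mostly pale, with Ifit2 at -0.48 in RORγt-deficient digoxin array 2 and Ifit3 at 0.42 in RORγt-deficient DMSO array 2.

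Gbp2, a guanylate-binding GTPase that coats the vacuoles of intracellular pathogens and is strongly induced by interferon gamma, read -0.12 and 0.12 in the wildtype DMSO arrays and 1.07 and 0.98 in the RORγt-deficient DMSO arrays. The groups did not overlap, and the difference was 1.02 ± 0.11 (SE, 2.03-fold, adjusted p = 0.00429). Its other probe set gave 1.13 ± 0.13.

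Ifitm1, a small membrane protein of the family that hinders virus entry, read -0.002 and 0.002 in the wildtype and 1.07 and 0.85 in the RORγt-deficient arrays. It rose by 0.96 ± 0.11 (1.95-fold, adjusted p = 0.00605), and both deficient arrays lay above both wildtype arrays. Of its relatives, Ifitm3 was higher by 0.28 ± 0.10 (unadjusted p under 0.05, not called) and Ifitm2 differed by -0.002 ± 0.11.

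Isg20, an exonuclease that degrades RNA, read 0.14 and -0.14 in the wildtype and 0.77 and 0.91 in the deficient arrays, without overlap. It rose by 0.84 ± 0.13 (1.79-fold, adjusted p = 0.0153). Zbp1, a sensor of Z-form nucleic acid that can start necroptosis, read -0.08 and 0.08 in the wildtype and 0.68 and 0.55 in the deficient arrays, again without overlap. It rose by 0.62 ± 0.12 (1.53-fold, adjusted p = 0.0451), and its other probe set gave 0.67 ± 0.11 (adjusted p = 0.0283 when all probe sets were tested).

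**Figure D2:**
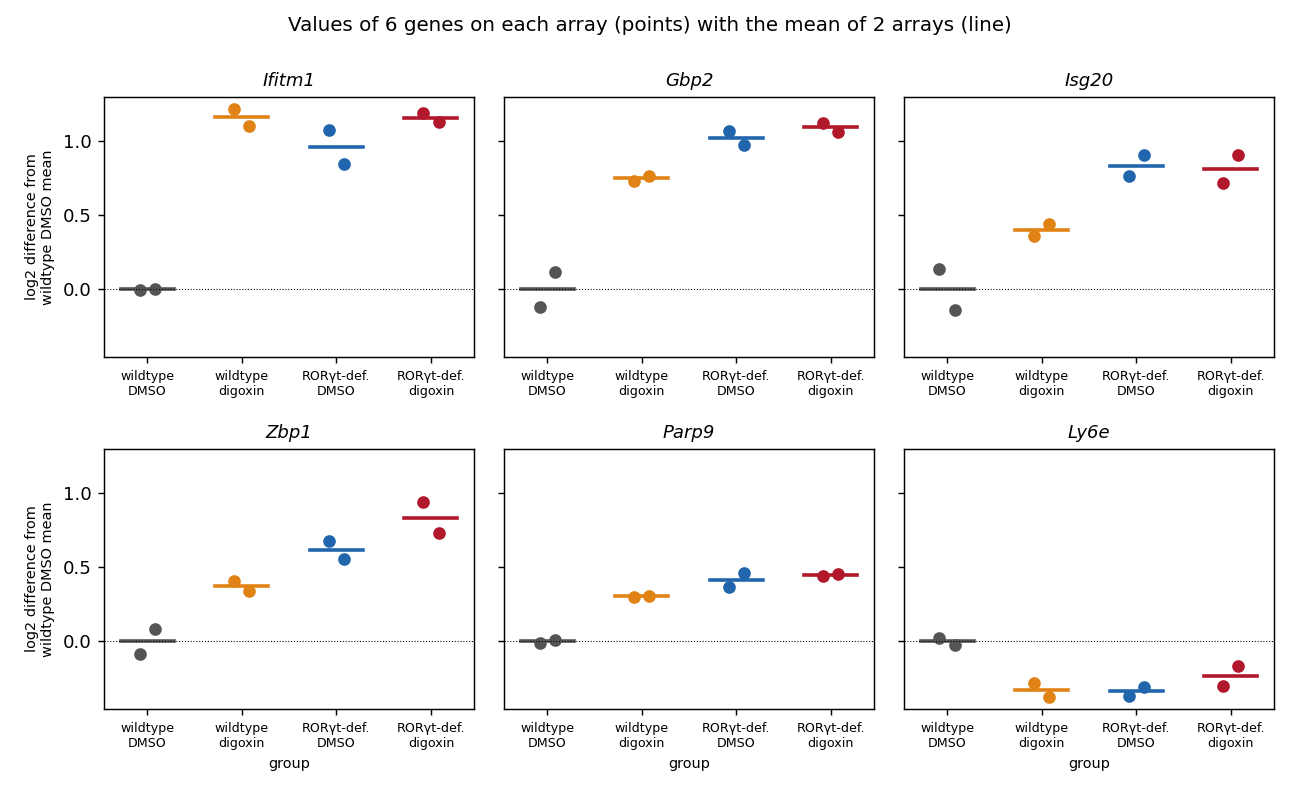
Log2 difference from the wildtype DMSO mean in each array (points, 2 per group; short lines mark group means) for Ifitm1, Gbp2, Isg20, Zbp1, Parp9 and Ly6e. For the first 5 genes every digoxin or RORγt-deficient array lies above both wildtype DMSO arrays, and for Ly6e every one lies below.

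Of the other sensors, Eif2ak2 (the kinase PKR, which halts translation) was higher by 0.37 ± 0.14 and Ifih1 (MDA5) by 0.25 ± 0.10, both at an unadjusted p under 0.05 and not called. The other 2 probe sets of Eif2ak2 gave 0.24 ± 0.11 and 0.04 ± 0.15. Ddx58 (RIG-I) gave 0.16 ± 0.11 and Dhx58 (LGP2), which modulates both receptors, gave -0.16 ± 0.11.

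The IFIT, Mx and OAS genes, with Usp18 and Rsad2, held no called member. Of the IFIT proteins, which block translation of viral RNA, Ifit1 gave -0.21 ± 0.12, Ifit2 gave -0.13 ± 0.17 and Ifit3 gave 0.28 ± 0.13. The dynamin-like GTPases Mx1 and Mx2 and the oligoadenylate synthetase family (Oas2, Oas3, Oasl1 and Oasl2), which sense double-stranded RNA, lay between -0.19 (Oasl1) and 0.17 (Oasl2). Usp18, which strips ISG15 from its targets and dampens the receptor, gave -0.03 ± 0.12, and Rsad2 (viperin) gave 0.09 ± 0.11. None of these 11 genes was called, against 1.05% of all genes, and at that share so short a list could well hold none. At an unadjusted p under 0.05, 1 (Ifit3) was higher (9.09%, against 4.25% of all genes) and none was lower (against 6.08%). The 95% intervals of the 11 genes together ran from -0.52 to 0.57.

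The remaining effectors, Cmpk2 (a nucleotide kinase), Samhd1 (a dNTP hydrolase), Bst2 (tetherin), Rtp4, Xaf1 and Lgals3bp, were not called either. Xaf1 gave 0.01 ± 0.10 on the probe set used and 0.43 ± 0.16 on its other one. Ly6e, a lipid-anchored surface protein, read 0.02 and -0.02 in the wildtype and -0.37 and -0.31 in the deficient arrays. Its difference was -0.34 ± 0.10 (adjusted p = 0.244, not called), without overlap between the groups, and its other probe set gave -0.19 ± 0.14.

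Of the 7 GTPases in the list, only Gbp2 was called (14.3%, against 1.05% of all genes). The other guanylate-binding proteins Gbp3 and Gbp7 gave 0.20 ± 0.12 and 0.17 ± 0.12. The immunity-related GTPases, which act on pathogen vacuoles, ran from 0.03 ± 0.10 for Ifi47 to 0.30 ± 0.15 for Irgm1, with Igtp at 0.16 ± 0.10 and Iigp1 at 0.19 ± 0.12. All 7 differences lay above 0.

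Among the PARP and nuclear regulators, Parp9 and Dtx3l, which act together as an ADP-ribosylating ubiquitin ligase complex, were both higher at an unadjusted p under 0.05. Parp9, described in full after its values were seen, read -0.01 and 0.01 in the wildtype and 0.37 and 0.46 in the deficient arrays. Its difference was 0.42 ± 0.10 (adjusted p = 0.106, not called), and Dtx3l gave 0.34 ± 0.12. The other probe set of Dtx3l gave 0.19 ± 0.10 (unadjusted p = 0.088). Parp14, Sp100, Daxx, Ifi35 and Trim30a lay between -0.04 (Ifi35) and 0.30 (Sp100) and were not called.

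The transcription factors that carry the response lay just above 0: Irf1 at 0.15 ± 0.11, Irf7 at 0.04 ± 0.11 and Irf9 at 0.15 ± 0.12. The peptide transporter Tap1 and the immunoproteasome subunits Psmb8 and Psmb9 lay just below it, between -0.10 and -0.05, with 95% intervals that reached no further than -0.33 and 0.19. None of these 6 genes was called, against 1.05% of all genes.

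**Figure D3:**
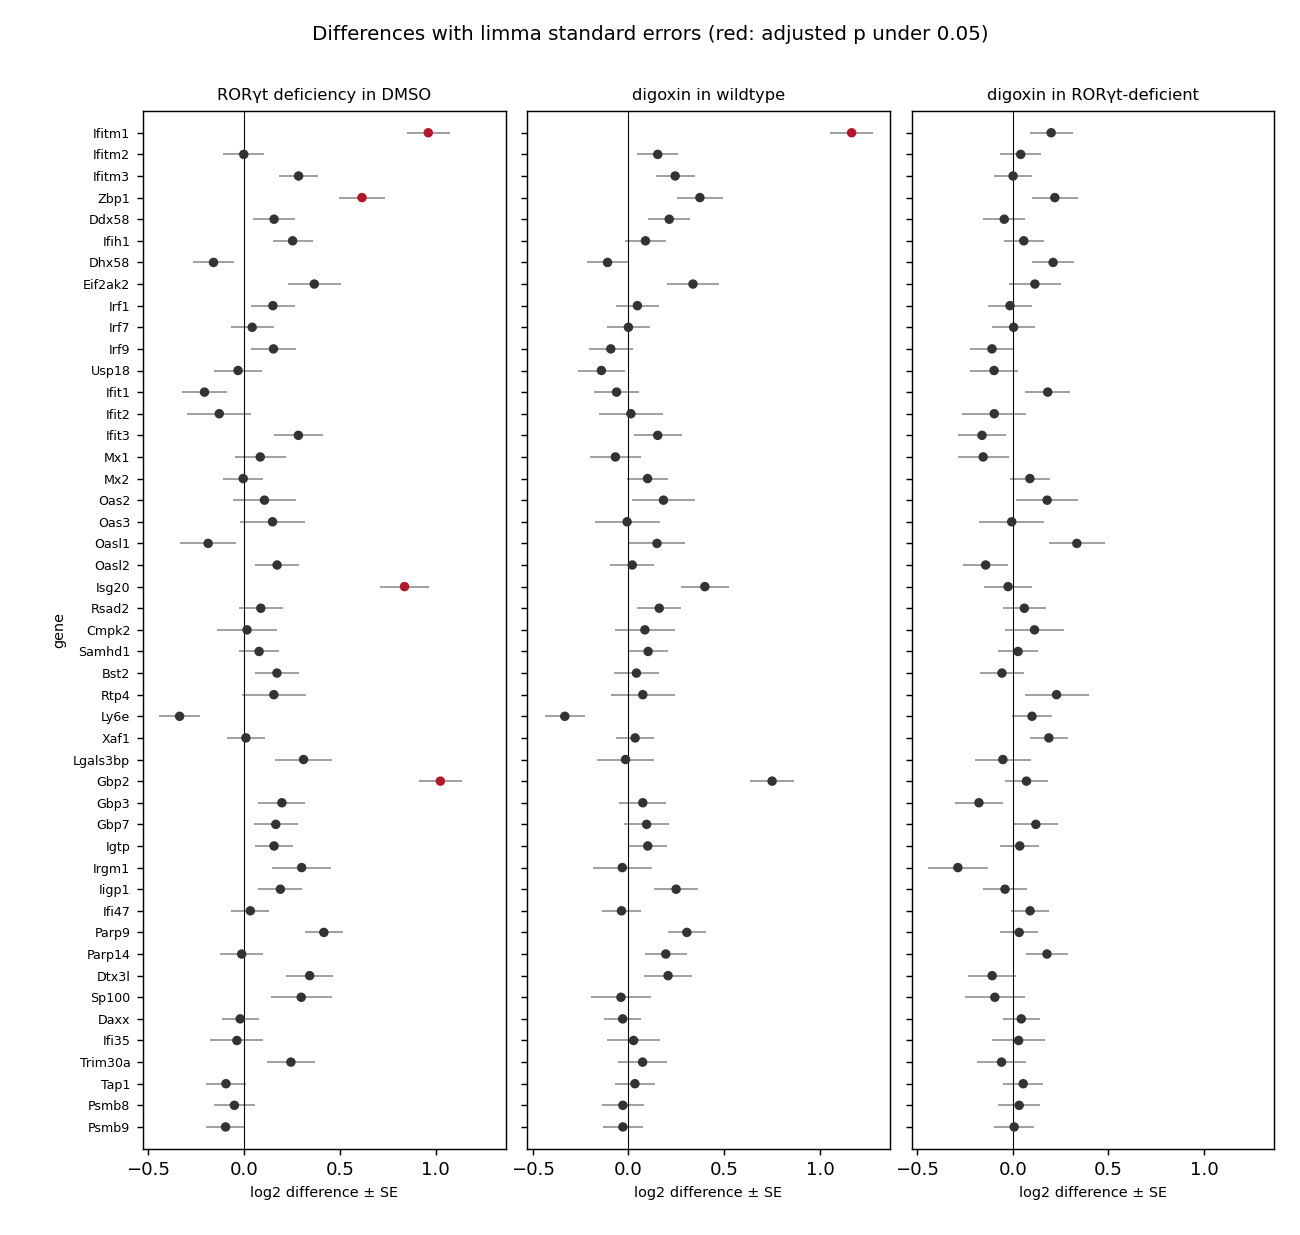
Log2 difference ± SE (horizontal axis) of the 47 genes (rows) for the effect of RORγt deficiency in DMSO and of digoxin in each genotype; red marks an adjusted p under 0.05. There are 4 red genes in the first panel, 1 (Ifitm1) in the second and 0 in the third.

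The calls in this comparison depended on single arrays, and none held after quantile normalisation. Gbp2 was called with each array left out in turn (adjusted p from 0.0244 to 0.0459), whereas Ifitm1 was not called without wildtype DMSO array 1 (adjusted p = 0.0525) or array 2 (adjusted p = 0.0783), Isg20 was called only without wildtype DMSO array 1, Zbp1 was called in none of these fits, and after quantile normalisation none of the 4 was called (adjusted p from 0.207 to 0.671; 3 of all genes called). The differences after quantile normalisation were 0.89 for Gbp2, 0.86 for Ifitm1, 0.70 for Isg20 and 0.51 for Zbp1. Over all genes the centred values had an SD of 0.09 in each wildtype DMSO array and 0.17 to 0.28 in the others. Quantile normalisation gives all arrays the same spread and so widens the mirror-image wildtype DMSO values. The calls lost after it therefore cannot decide whether the calls depend on the scaling.

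Markers of the cultured cells and of other cell types moved as follows beside these 4 genes. The mean of 6 T cell genes was -0.04 and 0.04 for wildtype cells with DMSO, 0.17 in both wildtype digoxin arrays, and 0.24, 0.27, 0.29 and 0.25 in the 4 deficient arrays, those with DMSO first. In the same order, the mean of the CD8 T cell genes Cd8a and Cd8b1 was -0.03 and 0.03, 0.05 and 0.07, 0.24 and 0.21, and 0.21 and 0.07. Cd8a and Cd8b1 differed by 0.22 and 0.23 for RORγt deficiency, and neither passed an unadjusted p of 0.05. The mean of 4 natural killer cell genes was 0.05 and -0.05, 0.21 and 0.40, 0.19 and 0.19, and 0.26 and 0.34 in the same order. Within that list the receptors Ncr1, Klra8 and Klre1 and the transcription factor Eomes differed by 0.003, 0.32, 0.19 and 0.24 for RORγt deficiency and by 0.10, 0.24, 0.48 and 0.41 for digoxin in wildtype cells (SE 0.10 to 0.14). The mean of 8 macrophage, monocyte and dendritic cell genes ranged from -0.01 to 0.28 over the 8 arrays, that of 4 B cell genes from -0.12 to 0.35, and that of 5 plasmacytoid dendritic cell genes (Bst2 among them) from -0.03 to 0.07. Of the T cell genes, 3 of 6 (50%) were higher for the deficiency at an unadjusted p under 0.05 (Cd3g at 0.43, Cd3e at 0.34 and Cd28 at 0.25). So were 1 of 4 natural killer cell genes (25%, Klra8) and 1 of 8 myeloid genes (12.5%, Itgax, 0.56 ± 0.19), against 4.25% of all genes. For digoxin in wildtype cells 2 of 6 T cell (33.3%), 2 of 4 natural killer cell (50%), 2 of 8 myeloid (25%) and 1 of 4 B cell genes (25%) were higher at that threshold. The share of all genes was 3.61%. For digoxin in deficient cells 1 natural killer cell gene (Klre1) and 1 myeloid gene (Csf1r) were higher, against 2.59% of all genes. No marker was lower in these 3 comparisons, against 6.08%, 3.39% and 0.918% of all genes. No marker gene was called at an adjusted p under 0.05 in them, against 1.05%, 0.121% and 0.0055% of all genes. In deficient cells with digoxin against wildtype cells with DMSO, 1 was called (1.58% of all genes were). This was the killer cell lectin-like receptor Klre1 (0.61 ± 0.10, adjusted p = 0.0214). The lowest levels of Ncr1, Klra8 and Eomes lay from 2 to 4, and those of Klre1, Csf1r and Itgax from 4 to 8. Neither these ranges nor the centred values show whether such a marker was expressed. The part of other cell types in the changes of Gbp2, Ifitm1, Isg20 and Zbp1 was not tested.

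Digoxin in wildtype cells raised Ifitm1 alone among the 47 genes (2.13%), against 22 of all 18193 genes called (0.121%). Ifitm1 read 1.22 and 1.11 in the digoxin arrays, above both wildtype DMSO arrays, a rise of 1.17 ± 0.11 (2.24-fold, adjusted p = 0.00359). Without wildtype DMSO array 1 or array 2 its adjusted p was 0.0804 or 0.0551, and after quantile normalisation it was 0.0989, so the call was lost in these 3 settings.

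Gbp2 read 0.73 and 0.76 under digoxin, also above both DMSO arrays, a difference of 0.75 ± 0.11 (1.68-fold, adjusted p = 0.0508) that just missed the threshold. It was called with the mean over its probe sets (adjusted p = 0.0188), with array weights (0.0406) and with only genes whose lowest level was 4 or above (0.0396). Its other probe set gave 0.85 ± 0.13. Isg20 read 0.36 and 0.44 (0.40 ± 0.13) and Zbp1 read 0.41 and 0.34 (0.37 ± 0.12), both with an adjusted p of 0.54. Each was above both wildtype DMSO arrays, and neither was called.

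In the same comparison 7 members were higher at an unadjusted p under 0.05 (14.9%), against 3.61% of all genes. These were Ifitm1, Gbp2, Zbp1, Isg20, Parp9 (0.31 ± 0.10), Eif2ak2 (0.34 ± 0.14) and Ifitm3 (0.24 ± 0.10). The other probe sets of Eif2ak2 did not show this rise and gave 0.03 ± 0.11 and -0.30 ± 0.15. Ly6e was the 1 member lower at that threshold, against 3.39% of all genes: it read -0.28 and -0.38 (-0.33 ± 0.10, adjusted p = 0.54), below both DMSO arrays. This comparison shares the wildtype DMSO arrays with that of RORγt deficiency in DMSO, so the values of both are not independent.

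In the other roles no gene was called under digoxin, against 0.121% of all genes. The IFIT, Mx and OAS genes with Usp18 and Rsad2 ran from -0.14 (Usp18) to 0.18 (Oas2), with 95% intervals from -0.42 to 0.55. None of them passed an unadjusted p of 0.05, at which 3.61% of all genes were higher and 3.39% lower. Irf1, Irf7 and Irf9 ran from -0.09 to 0.05, and Tap1, Psmb8 and Psmb9 from -0.03 to 0.03. The GTPases other than Gbp2 included Iigp1 at 0.25 ± 0.12 (0.39 ± 0.16 on its other probe set, unadjusted p = 0.0383) and Gbp3 at 0.08 ± 0.12. The median over the 47 genes was 0.08, against 0.01 over all genes.

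Digoxin in RORγt-deficient cells called none of the 47 genes, against 1 of all 18193 genes (0.0055%). At an unadjusted p under 0.05 there was 1 higher member (2.13%), Oasl1, against 2.59% of all genes, and none lower, against 0.918% of all genes. The share of members was thus close to that of all genes. The median difference was 0.03, against 0.02 over all genes.

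Ifitm1 read 1.19 and 1.13 in the RORγt-deficient digoxin arrays against 1.07 and 0.85 without the drug. The difference was 0.20 ± 0.11 (95% interval from -0.05 to 0.45), although both digoxin arrays lay above both DMSO arrays. Gbp2 read 1.13 and 1.07 against 1.07 and 0.98, overlapping slightly, with a difference of 0.07 (95% interval from -0.18 to 0.32). Isg20 read 0.72 and 0.91 against 0.77 and 0.91, overlapping fully, with a difference of -0.02 (from -0.31 to 0.26). Zbp1 read 0.94 and 0.73 against 0.68 and 0.55, without overlap, with a difference of 0.22 ± 0.12 (from -0.05 to 0.49).

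The 3 members with the smallest p here were Oasl1, Dhx58 and Xaf1. Oasl1 read 0.01 and 0.28 with digoxin against -0.05 and -0.33 without it (0.34 ± 0.15, unadjusted p = 0.0458), without overlap between the groups. Without RORγt-deficient DMSO array 2 or digoxin array 2 its difference was 0.20, and without array 1 of either group it was 0.47. Dhx58 read 0.08 and 0.02 against -0.09 and -0.24 (0.21 ± 0.11), while its other probe sets gave 0.17 ± 0.14 and 0.06 ± 0.12, and its difference was 0.14 without RORγt-deficient DMSO array 2. Xaf1, which is known as a partner of the apoptosis inhibitor XIAP, read 0.16 and 0.24 against -0.03 and 0.04 (0.19 ± 0.10), while its other probe set gave -0.07 ± 0.16. The lowest of the 47 was Irgm1, at -0.29 ± 0.15.

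RORγt deficiency under digoxin, which sets the 2 digoxin groups against each other, also called none of the 47 genes, against 1 of all genes (0.0055%). At an unadjusted p under 0.05 there were 3 higher members (6.38%), against 2.78% of all genes, and none lower, against 2.73%. The 3 were Zbp1 (0.46 ± 0.12, adjusted p = 0.45), Isg20 (0.41 ± 0.13, adjusted p = 0.628) and Gbp2 (0.35 ± 0.11, adjusted p = 0.716). For each of them both deficient arrays lay above both wildtype arrays. Ifitm1 differed by -0.003 (95% interval from -0.26 to 0.25), and its 2 pairs of arrays overlapped.

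With both perturbations, RORγt-deficient digoxin cells against wildtype DMSO cells, 4 of the 47 genes rose (8.51%) and none fell, against 287 of all 18193 genes called (1.58%). These values rest on the same wildtype DMSO arrays as those above. Ifitm1 rose by 1.16 ± 0.11 (2.24-fold, adjusted p = 0.00168), Gbp2 by 1.10 ± 0.11 (2.14-fold, adjusted p = 0.00223), Zbp1 by 0.84 ± 0.12 (1.78-fold, adjusted p = 0.0097) and Isg20 by 0.81 ± 0.13 (1.76-fold, adjusted p = 0.0139). Parp9 read 0.44 and 0.46 and was not called (0.45 ± 0.10, adjusted p = 0.0595).

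At an unadjusted p under 0.05, 10 members were higher with both perturbations (21.3%), against 7.44% of all genes, and Ly6e was lower, against 7.53% of all genes. Iigp1 gave 0.15 ± 0.12 on the probe set used and 0.57 ± 0.16 on its other one (adjusted p = 0.154 when all probe sets were tested). Of the 47, 38 lay above 0 (80.9%, against 56.7% of all genes). The call of Ifitm1 and Gbp2 held with each array left out, the number of members called was then 2 or 3, and after quantile normalisation none was called.

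The test of whether digoxin acted differently in the 2 genotypes called no member and no gene at all (0%). The signed difference was the digoxin effect in deficient cells minus that in wildtype cells. At an unadjusted p under 0.05 it was below 0 for 3 members (Ifitm1, Gbp2 and Isg20), against 1.41% of all genes. It was above 0 for 1 member (Ly6e), against 1.68%. For Ifitm1 the digoxin effect was lower in the deficient cells by 0.96 ± 0.16 (from -1.32 to -0.61; adjusted p = 0.363). For Gbp2 it was lower by 0.68 ± 0.16 (from -1.03 to -0.32) and for Isg20 by 0.42 ± 0.18 (from -0.83 to -0.02). For Ly6e it was higher by 0.43 ± 0.15 (from 0.10 to 0.76): its difference was -0.33 with digoxin in wildtype cells and 0.10 in deficient cells. For Zbp1 the difference between the effects was -0.15 (95% interval from -0.53 to 0.22).

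**Figure D4:**
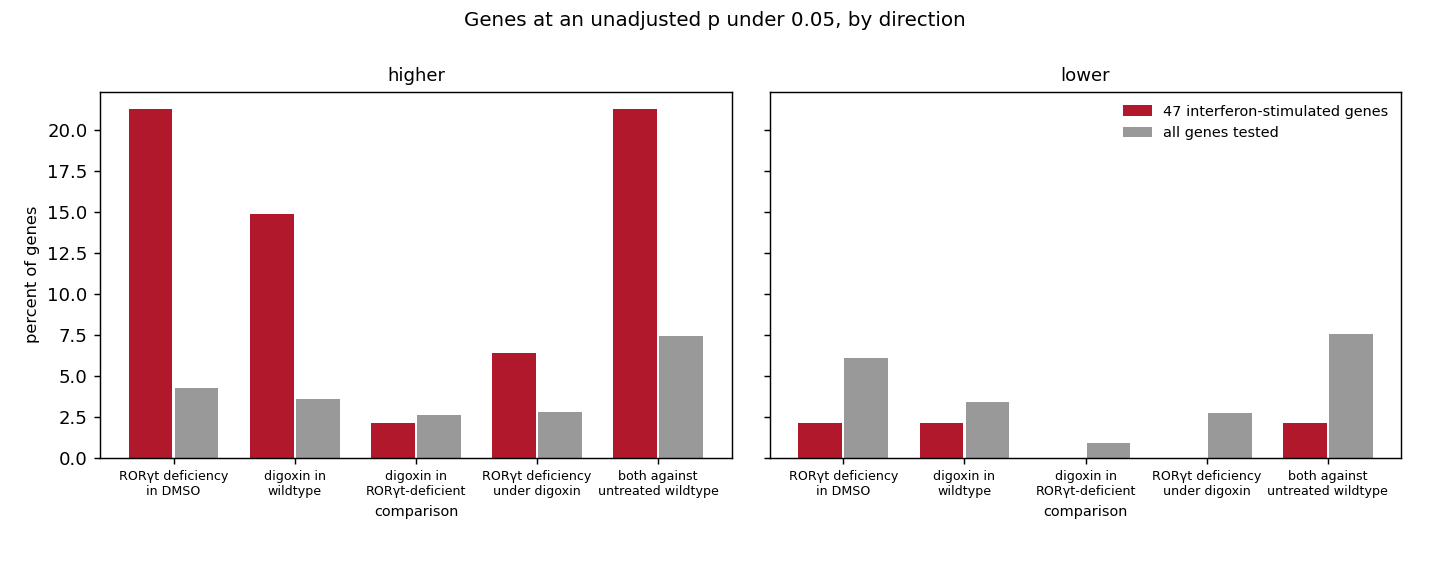
Percent of the 47 members and percent of all 18193 genes (vertical axis, bars from 0) that were higher or lower at an unadjusted p under 0.05 in each of 5 comparisons. The members' share of higher genes is 21.3% against 4.25% for RORγt deficiency in DMSO and 2.13% against 2.59% for digoxin in RORγt-deficient cells. The members were chosen with earlier results of these data known, so the shares are no independent test of the set.

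The genes upstream of the response were read from a list of ligands, receptors and signalling genes, of which 35 were measured. None of these 35 was called in any comparison, against 0% to 1.58% of all genes. Interferon gamma (Ifng) differed by -0.06 ± 0.19 for RORγt deficiency in DMSO, by -0.03 ± 0.19 for digoxin in wildtype cells and by 0.06 ± 0.19 for digoxin in deficient cells. Interferon beta (Ifnb1) differed by -0.11, 0.08 and -0.01 (SE 0.11 each). The 95% intervals of Ifng ran from -0.47 to 0.36, from -0.44 to 0.39 and from -0.36 to 0.47 in the same order. The lowest level of Ifng lay from 2 to 4, the lowest range, and that of Ifnb1 from 4 to 8. A dim probe set can miss a change, so these values do not show that the ligands were unchanged.

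For the deficiency in DMSO and for digoxin in either genotype, the counts in this list at an unadjusted p under 0.05 were near the share of all genes. For RORγt deficiency in DMSO, 2 of 35 were higher (5.71%, against 4.25% of all genes) and 2 lower (5.71%, against 6.08%); for digoxin the counts were 2 higher in wildtype cells (5.71%, against 3.61%) and 1 in deficient cells (2.86%, against 2.59%), with none lower. The genes higher for the deficiency were Socs1 (0.44 ± 0.12, adjusted p = 0.194) and Socs3 (0.35 ± 0.11, adjusted p = 0.261), both feedback inhibitors of JAK kinases. Those lower were the adaptor of RNA sensing Mavs (-0.36 ± 0.11, adjusted p = 0.247) and the phosphatase Ptpn2 (-0.60 ± 0.26). For digoxin in wildtype cells Socs3 (0.31 ± 0.11) and the receptor chain Ifngr2 (0.34 ± 0.14) were higher at that threshold, with the transcription factor Irf8 next (0.24 ± 0.12). For digoxin in deficient cells it was Irf3 (0.31 ± 0.11), followed by the kinase Tbk1 (-0.27 ± 0.14) and Irf8 (0.21 ± 0.12). The medians of the list were 0.05, 0.01 and 0.02 in these 3 comparisons. With both perturbations 4 of 35 were higher at that threshold (11.4%, against 7.44% of all genes): Socs3, Socs1, Irf8 and Ifngr2. Ptpn2 and Irf2 were lower (5.71%, against 7.53%), and 25 of 35 lay above 0 (71.4%, against 56.7%).

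Of 41 further interferon-stimulated genes, 33 were measured. None of these 33 was called for the deficiency in DMSO or for digoxin in either genotype (against 1.05%, 0.121% and 0.0055% of all genes). For the deficiency, 5 were higher at an unadjusted p under 0.05 (15.2%, against 4.25% of all genes) and 0 lower (against 6.08%), led by Ifi209 (0.63 ± 0.16), Slfn8 (0.39 ± 0.12) and Znfx1 (0.42 ± 0.12), with a median of 0.07. For digoxin in wildtype cells there were 2 (6.06%, against 3.61% of all genes), the guanylate-binding protein Gbp6 (0.54 ± 0.21) and the Schlafen family member Slfn8 (0.28 ± 0.12), followed by Trim21 (0.28 ± 0.13). For digoxin in deficient cells there was 1 (3.03%, against 2.59% of all genes), Ifi209 (0.39 ± 0.16), followed by B2m (-0.16 ± 0.11) and Nmi (-0.10 ± 0.11).

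Ifi209, of the family of DNA-binding HIN proteins, was the 1 gene of this list called with both perturbations. Wildtype cells read -0.05 and 0.05 with DMSO and -0.05 and 0.29 with digoxin, and deficient cells read 0.71 and 0.54 with DMSO and 1.23 and 0.80 with digoxin. It rose by 1.01 ± 0.16 (2.02-fold, adjusted p = 0.0154), and all 4 deficient arrays lay above all 4 wildtype arrays.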

How the data were processed

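RNA of 8 arrays was measured, and the authors deposited log2 values, made with RMA per the submitters' processing notes (GeneSpring GX 11.5 is named in the design text). The deposited values were centred: for each probe set the 2 wildtype DMSO arrays sum to 0 within 1e-06, so absolute levels are not shown. Of 45101 probe sets, 64 controls, 932 with several gene symbols and 9211 with none were left out. These classes overlap, because controls without a symbol are also counted among those with none. The probe sets with 1 symbol that remained were 34945, 34741 of them matched to RefSeq. One probe set per gene was used, by suffix (plain before shared), then by identifier. A model of the 4 group means over all 8 arrays was fitted with limma 3.58.1 in R 4.3.3 (two-sided; 4 residual and 5.8 prior degrees of freedom) and checked on simulated data. Precision is limited by 2 arrays per group. The members and gene lists were chosen with earlier results of these data known. Named genes were those called in any comparison and, in each comparison, the 3 members with the smallest unadjusted p. Alternatives were left-out arrays, a replicate block, quantile normalisation, other probe set rules, array weights, a filter on dim genes and fits on only the groups compared.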

Additional observations from a re-analysis of the deposited data

How the results depend on the processing

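Of the 4 members called for RORγt deficiency in DMSO, 1 to 2 were called when an array was left out (17 to 56 of all genes), 2 in a fit of the compared groups alone (95 of all genes) and 0 after quantile normalisation (3 of all genes), while the other 5 planned settings called 3 or 4. For digoxin in wildtype cells, 0 to 1 were called with an array left out (6 to 16 of all genes), 0 after quantile normalisation, and 2 with the mean over probe sets, with array weights or with only genes at 4 or above. For both perturbations, 2 to 3 were called with an array left out (25 to 75 of all genes) and 0 after quantile normalisation (10 of all genes). Quantile normalisation widens the centred wildtype DMSO values, so the counts after it cannot decide whether the calls depend on the scaling. The cause of the other changes was not tested. Digoxin in deficient cells, deficiency under digoxin and the difference between the digoxin effects called 0 members in every setting run, and no named member reversed.

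The differences between replicates 2 and 1 correlated at 0.33 to 0.45 among the 3 other groups, but at -0.24, -0.19 and -0.14 between wildtype DMSO and each of them, so the numbers were not taken to pair the arrays of all 4 groups. With the replicate block 3, 1 and 4 members were called for the deficiency, digoxin in wildtype and both perturbations. With the wildtype DMSO numbers crossed, a setting chosen after seeing the data, the block called 4, 2 and 5 members (414, 60 and 783 of all genes). Groups of 2 arrays limit what differences could be resolved.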
